A study of Danio rerio with 2 samples.

Results

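The genes dct, tyr and pmelb belong to melanin synthesis and its organelle, and each was represented by 1 named probe set on the array. They were picked out by gene symbol, with earlier results of these data known, and are 3 of 8793 named genes, or 3 of 15502 transcript probe sets. The 2 Affymetrix arrays of the study each hold total RNA from 1 preparation of pigment cells of adult wild type zebrafish over 2 months old, taken from caudal and anal fins, 1 titled melanophores and 1 titled xanthophores. Fins of 1000 pet shop fish were pooled and digested (trypsin, then collagenase) before the cells were separated, by centrifugation or a cell sorter, and the labels do not say which method gave which preparation. With 1 array per preparation there is no replicate, so no test was made and no difference below has a replicate check.

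The labels of the arrays contradict each other. The sample titled melanophores is given as xanthophores in its source and cell type fields, and for the sample titled xanthophores the reverse holds. Below, the array titled melanophores is called array M and the array titled xanthophores array X, after the titles alone. Every direction is one between titles, and the first signal of a pair is from array M unless the sentence says otherwise.

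Melanin is the black pigment of melanophores and is made inside melanosomes, organelles related to lysosomes. Tyrosinase, encoded by tyr, oxidises tyrosine to dopaquinone, the step without which no melanin forms. Dopachrome tautomerase, encoded by dct, is a metalloenzyme of the same protein family that acts further along, on dopachrome, on the way to brown-black eumelanin. Pmel proteins are not enzymes of this route. They form the fibrils of the maturing melanosome on which melanin is laid down, and pmelb is one of the pmel genes of the zebrafish. Xanthophores, the yellow pigment cells of the same fins, hold pteridines and carotenoids.

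Of the 3 genes, dct stood apart between the arrays, tyr lay near the middle of both, and pmelb was among the dimmest probe sets of both. The brighter dct signal was on array X. The values are MAS 5.0 signals, which summarise the probes of a probe set on a linear scale. The median signal of each array, 47.2 on array M and 43.5 on array X, served as a floor. A lower signal was raised to it before a ratio was formed, and such a ratio is a bound. A gene is called measured when the brighter of its signals was at or above its array's median, and compared when it was at or above its array's 75th percentile (234 and 173). Of the 3 genes, dct and tyr were measured and dct was the 1 gene compared.

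The dct probe set (NCBI gene 58074) read 50.1 on array M and 590.1 on array X. The first signal lies just above its array's floor and the second is far above the 75th percentile of its own array. Within array M 51.0% of transcript probe sets were dimmer than dct (rank 7598 from the brightest), and within array X 89.6% were dimmer (rank 1614). The log2 ratio, M over X, was -3.56, an 11.8-fold brighter signal on array X. The only error that can be set beside it is technical. Over the 201 genes with more than 1 compared probe set, the log2 ratios of a gene's probe sets had an SD of 0.38, or a factor of 1.30, and the dct difference is larger than that. That SD leaves out any error that the probe sets of an array share, and it may not hold for a signal as low as that of dct on array M. Since dct has a single probe set, no second one checks it.

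Among the 2929 compared genes dct held rank 6 in the direction of array X, and 63 genes (2.15%) were 4-fold or more brighter there. In the opposite direction 109 genes (3.72%) were 4-fold or more brighter. The genes placed directly before dct were sccpdha.1 (11.9-fold) and wif1, a secreted Wnt inhibitor (11.9-fold), and the gene directly after it was slc24a4a (9.86-fold). The 500 probe sets with a signal nearest to that of dct on array M, between 45.9 and 54.8, had a median of 43.8 and a 90th percentile of 75.97 on array X. Of these 500 probe sets, 0 were brighter than dct there. Seen from the other side, the 500 probe sets nearest to dct on array X, between 492.2 and 706.7, had a median of 816 and a 10th percentile of 328 on array M, and all 500 were brighter than dct there. These ranks describe 2 arrays and are not a test.

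**Figure D1:**
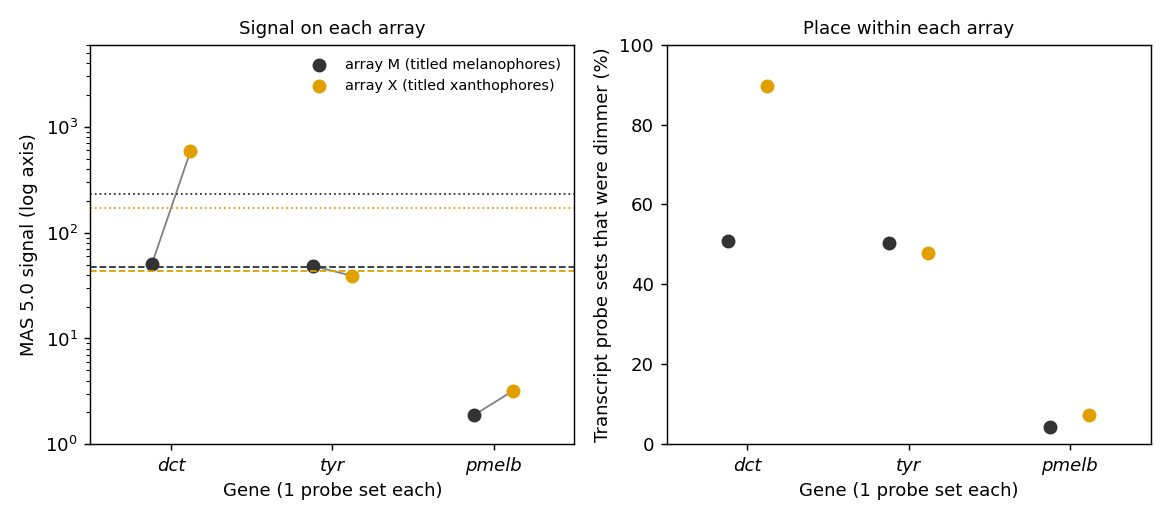
Signals of dct, tyr and pmelb on both arrays. The left panel gives the MAS 5.0 signal on a log axis, 1 point per array, with dashed lines at each array's median (47.2 and 43.5) and dotted lines at its 75th percentile (234 and 173); the right panel gives the share of the 15502 transcript probe sets that were dimmer, in percent. The dct signal rises from 50.1 to 590.1, tyr lies near both medians and pmelb far under them.

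The tyr probe set (NCBI gene 30207) read 48.4 on array M and 39.2 on array X. The first is just above the median of its array and the second just under, with 50.4% and 47.7% of transcript probe sets dimmer. The quotient of the signals as they stand was 1.23, smaller than the factor of 1.30 between probe sets of a gene. That factor comes from compared probe sets, which are brighter than that of tyr, so it may not hold at these signals. Against the floor the ratio is bounded only to at least 1.11-fold towards array M. No difference in tyr was detectable at this brightness. In neither preparation did the probe set for the first enzyme of the route reach the 75th percentile, including the preparation in which dct did.

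Of the 500 probe sets nearest to tyr in signal on array M, 285 were brighter than tyr on the other array. Of the 500 nearest to it on array X, 176 were brighter than tyr on array M. Thus tyr sat inside the bulk of probe sets of like signal on both arrays, where dct sat outside it.

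The pmelb probe set (NCBI gene 562810) read 1.9 on array M and 3.2 on array X. Both signals are under the median of their array, with 4.36% and 7.38% of transcript probe sets dimmer, so no ratio is given. Being under the median of both arrays is common: 3289 of the 8793 named genes (37.4%) were. A signal this low sets only an upper bound and does not show that the transcript is absent from the cells.

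**Figure D2:**
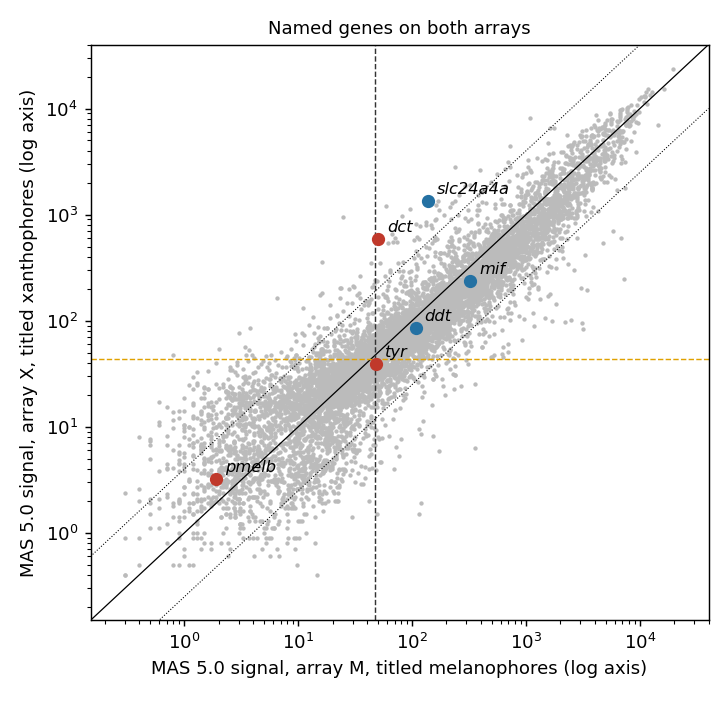
Signals of the 8793 named genes (grey) on array M (horizontal, log axis) and array X (vertical, log axis), with the 3 genes in red and the other melanin and melanosome genes in blue. The solid line marks equal signals, dotted lines 4-fold differences and dashed lines the medians of the arrays (47.2 and 43.5); dct and slc24a4a lie beyond 4-fold on the side of array X, and tyr, mif and ddt lie near the line of equal signals.

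For each of the 3 genes the 5 named genes nearest in the plane of the 2 log2 signals were taken. Those nearest to dct were fgfr4, an FGF receptor (61.9 against 545.2, distance 0.33), angptl7 (66.6 against 651.7, distance 0.43), si:dkey-12l12.1 (distance 0.45), the transcription factor zic2a (71.4 against 606.0, distance 0.51) and csf1b, a ligand of the Csf1 receptor (73.4 against 556.6, distance 0.56). No named gene was thus closer to dct than 0.33 on the log2 scale. The neighbours of tyr were closer, at distances from 0.023 to 0.071 (LOC562053, pknox2, tspan9b, si:rp71-1g18.7 and cyp2p6). Those of pmelb, at distances from 0 to 0.087, were si:rp71-77l1.1, rnf17, ache, pla2g4aa and syt13, all of them dim on both arrays. The likeness rests on 2 arrays and says nothing of shared function.

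Few other melanin genes carried a name. Of 9 melanophore markers (dct, tyr, pmelb, pmela, tyrp1a, tyrp1b, oca2, slc24a5 and slc45a2), the 3 genes described here had a named probe set and the other 6 are not analysed here. A list of 19 genes of melanin enzymes and melanosome proteins, which includes those 6, leaves out the 3 genes described here. Of the 19, 3 had a named probe set and all 3 were measured. The ion exchanger slc24a4a, whose human counterpart lies at a locus associated with hair and eye colour, read 136.8 against 1348.7, a log2 ratio of -3.30 and 9.86-fold brighter on array X, as dct was, and between 6.98-fold and 14.5-fold under the settings tried. The small cytokine-like enzymes mif and ddt, which act on D-dopachrome in the test tube, read 321.7 against 234.1 and 107.1 against 84.9. Their log2 ratios of 0.46 and 0.34 lie close to the median of 0.36 over all 5501 measured genes, and their signs turned under some scalings. Over all measured genes 853 (15.5%) were 2-fold or more brighter on array M and 225 (4.09%) on array X. This balance turned with the scaling, to 361 and 452 genes with spike-ins set equal and 244 and 637 with equal medians of bright probe sets, while ribosomal protein genes set equal gave 2249 and 127.

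Genes that build and move melanosomes and related organelles did not follow dct as a group. A named probe set existed for 20 of 44 listed, of which 16 passed as measured. Array M was the brighter by 2-fold or more for 7 and array X for 1, and their median log2 ratio was 0.90, beside 0.36 over all measured genes. The 1 gene past 2-fold towards array X was zgc:91968, for which RefSeq gives the synonym mreg, melanoregulin, a protein that in mice acts in melanosome transport and transfer. It read 324.1 against 1897.6, a log2 ratio of -2.55 and 5.85-fold brighter on array X. It kept that direction under every setting tried, from 4.14-fold to 8.60-fold. The dynactin subunit gene dctn2, of the motor complex that moves melanosomes inwards, read 463.8 against 692.0 (1.49-fold towards array X), and passed 2-fold there after quantile normalization (2.14-fold), lowess (2.14-fold) or with equal medians of bright probe sets (2.19-fold).

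The largest ratios the other way were those of ap3s1 (7377 against 1778, 4.15-fold) and ap3s2 (1086 against 270.0, 4.02-fold), which encode the small subunit of AP-3, an adaptor that sorts cargo to lysosome-related organelles. The small GTPase gene rab32a, which acts in the delivery of melanin enzymes to melanosomes, read 2752 against 1091 (2.52-fold). The others were ap3m2 (2.40-fold), dtnbp1a (2.33-fold), hps4 (2.18-fold) and vps16 (2.14-fold), the last a subunit of a tethering complex of late endosomes. Setting the spike-in controls of the arrays equal left 2 of the 7, ap3s1 and ap3s2, at 2-fold or more, and lowered the list's median to 0.52, beside -0.02 over all measured genes. All 18 spike-in probe sets, for bacterial and phage transcripts added in fixed amounts, were brighter on array M, with a median log2 ratio of 0.38 (range 0.18 to 0.97).

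**Figure D3:**
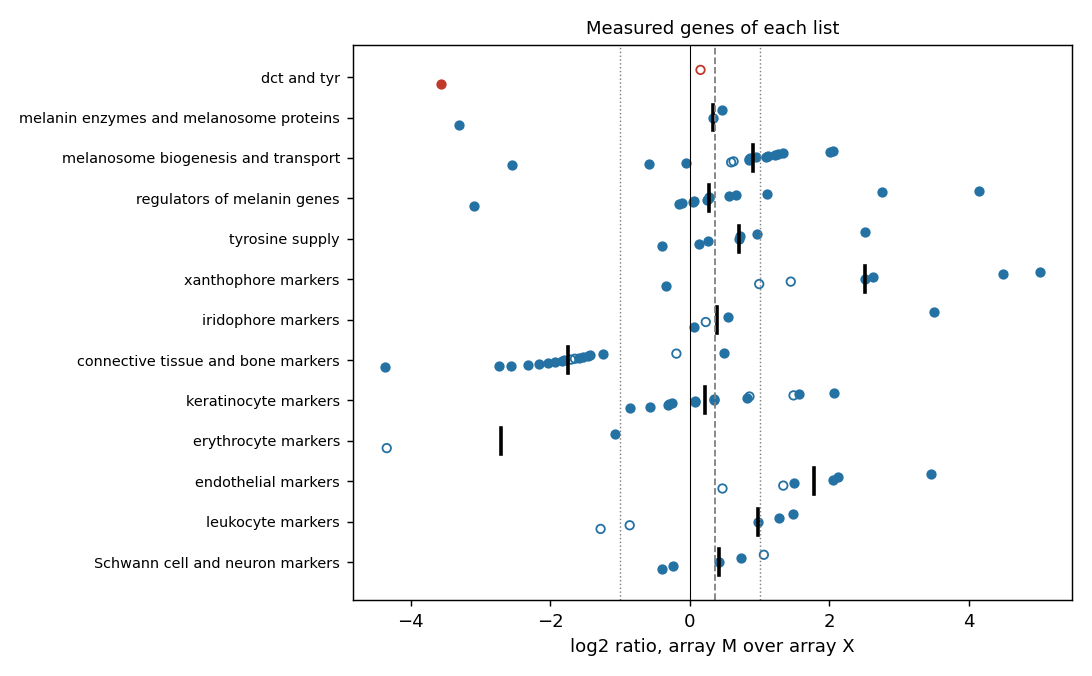
Log2 ratio, M over X, of each measured gene, by list. Open circles are ratios formed against a floor, black bars are list medians, the dashed line is the median of all measured genes (0.36) and dotted lines mark 2-fold; dct at -3.56 lies with zgc:91968, slc24a4a and zic2a on the left, as do connective tissue and bone markers (median -1.75).

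The transcription factors and receptors that control melanin genes were within 2-fold about as often as all measured genes. A named probe set existed for 16 of 26 listed, of which 13 passed as measured, with a median log2 ratio of 0.28, and 9 lay within 2-fold (69.2%, beside 69.0% of all measured genes). Mitfa, the transcription factor that melanophores require and that activates dct and tyr in vertebrate pigment cells, read 358.1 against 243.2 (log2 ratio 0.56). Sox10, required for the neural crest pigment lineages, read 3857 against 3177 (0.28), and kita, the receptor that melanophores need to migrate and survive, read 90.4 against 97.8 (-0.11). The signs of the sox10 and kita ratios turned under some scalings. The 11.8-fold difference in dct stood beside differences under 2-fold in mitfa and in sox10, though mitfa reached 2.08-fold towards array M when ribosomal protein genes were set equal.

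Exceptions among the regulators went both ways. The agouti-family gene asip2b read 3415 against 192.9 (17.7-fold) and lef1, a nuclear effector of Wnt signalling, 476.8 against 71.0 (6.72-fold), both brighter on array M. Foxd3, which in zebrafish represses mitfa, read 785.3 against 364.5 (2.15-fold, and 1.65-fold with spike-ins set equal). On array X zic2a was 8.49-fold brighter, but at least 2.12-fold as the median over its probe sets and 5.14-fold, also a bound, once the floor was raised to the 65th percentile. The melanocortin receptor mc1r, at 33.4 against 36.9, was under the median of both arrays.

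Tyrosine supply and its cofactor were listed with 16 genes, of which 10 were named on the array and 7 measured. The 1 gene past 2-fold was gch2, which makes the precursor of both the cofactor tetrahydrobiopterin and the pteridine pigments, at 803.9 against 140.5 (5.72-fold brighter on array M). The other 6 lay within 2-fold (85.7% of the 7, beside 69.0% of all measured genes). The list had a median log2 ratio of 0.71, beside 0.36 over all measured genes. With ribosomal protein genes set equal, slc3a2a (2.33-fold), qdprb.1 (2.30-fold) and the tyrosine breakdown gene tat (2.75-fold) also passed 2-fold towards array M.

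Among markers of other cells, the connective tissue and bone list moved with dct, as did 2 measured erythrocyte genes of 10 named. The endothelial, keratinocyte, leukocyte, and Schwann cell and neuron lists, given below, did not in the deposited values, though for leukocytes this turned with the scaling. As deposited, each of them had more members past 2-fold towards array M than towards array X, as all measured genes did (15.5% against 4.09%). Connective tissue and bone were listed with 31 markers, of which 22 were named on the array and 18 measured. Array X was the brighter by 2-fold or more for 16 of the 18 and array M for 0, beside 4.09% and 15.5% of all measured genes. The 16 fell to 13 with ribosomal protein genes set equal or with the floor at the 65th percentile. As the median over probe sets, 14 of 17 measured passed. The summed signal of the 18 was 7608.5 against 27804.9, and the largest ratios were those of the bone matrix gene spp1 (20.6-fold), col10a1a (6.65-fold) and mmp2 (5.89-fold). With the higher floor spp1 was bounded to at least 10.3-fold, and as the median over its probe sets mmp2 stood at 3.76-fold. The osteoblast regulator sp7 was under the median of both arrays (17.8 against 15.8). Another, runx2a, read 29.9 against 147.6, at least 3.13-fold brighter on array X. Its bound fell to 1.25-fold with the higher floor and 1.65-fold as the median over its probe sets. On this list cdh11 was brighter on array M (751.4 against 532.4), within 2-fold. Erythrocytes were listed with 15 markers, of which 10 were named on the array and 2 measured, while 8 were not. The 2 were the globins hbaa1 (24.9 against 956.5) and hbae3 (87.7 against 184.0), both brighter on the same array as dct. Their summed signal was 112.6 against 1140.5. The hbaa1 ratio is a bound, at least 20.3-fold. For hbae3 the 2.10-fold difference fell to 1.48-fold with ribosomal protein genes set equal. With the floor at the 65th percentile it was bounded to at least 1.56-fold. The part of these cells in the dct difference was not tested. A larger share of cells with dct and more dct RNA per cell cannot be told apart in these preparations.

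Most markers of xanthophores were brighter on array M, opposite to dct. All 7 of the 11 listed that were named on the array were measured. On array M 5 were 2-fold or more brighter and on the other 0, beside 15.5% and 4.09% of all measured genes. Their median log2 ratio was 2.52 and their summed signal 11014 against 4915. The carotenoid-cleaving enzyme gene bco1 led (3076 against 95.2, 32.3-fold), followed by the carotenoid uptake receptor gene scarb1 (22.5-fold) and slc2a11b (6.17-fold). The gene gch2, given above, counts on this list too. The fifth, csf1ra (118.6 against 1.9), has only a bound, at least 2.73-fold, which fell to 1.86-fold with equal medians of bright probe sets and 1.27-fold with the higher floor. The sugar transporter family gene slc2a15b, at 3444 against 4349, was the brighter on array X, as dct was, but within 2-fold. Its sign turned with ribosomal protein genes set equal (1.12-fold towards array M). The array with the brighter dct signal is the xanthophore one by title and the melanophore one by source and cell type field.

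The remaining lists are given once. Beside them, 15.5% of all measured genes were 2-fold or more brighter on array M and 4.09% on array X. Endothelial markers were brighter on array M by 2-fold or more in 5 of 6 measured members, with the largest ratios for lyve1a (10.9-fold), kdrl (4.34-fold) and plvapb (4.17-fold). Keratinocyte markers were 2-fold brighter there in 3 of 14 (cdh1, krt5 and, as a bound, cldnb), near the share of all measured genes. Their median of 0.21 lay under the 0.36 of all measured genes. Leukocyte markers went both ways (at 2-fold, 2 of 5 measured towards array M, cd74a and cd74b, and 1 towards the other, cxcr4b). Schwann cell and neuron markers had a median of 0.42 over 5 measured (mbpa at least 2.09-fold, with mbpb and uchl1 within 2-fold), and of 4 measured genes listed for iridophores only paics, a purine enzyme, passed 2-fold (11.3-fold), while crip2 and mpv17 did not. With the floor at the 65th percentile lyve1a was bounded to at least 5.34-fold, and fli1rs, cldnb, mbpa and cxcr4b no longer passed 2-fold. As the median over its probe sets fli1 had a bound of 1.52-fold. Scaling also ended calls at 2-fold. With spike-ins set equal cd74a stood at 1.87-fold. With equal medians of bright probe sets cd74b stood at 1.90-fold and fli1 at 1.92-fold. There cldnb and fli1rs had bounds of 1.91-fold and 1.72-fold. The bound of mbpa lay between 1.42-fold and 1.85-fold under every scaling but ribosomal protein genes set equal. That scaling left cxcr4b a bound of 1.72-fold. It brought coro1a (2.78-fold), krt18b (2.48-fold) and mbpb (2.36-fold), among others, past 2-fold towards array M. Other scalings added calls towards array X. With spike-ins set equal lyz (a bound of 2.37-fold) and agr2 (2.37-fold) passed there. With equal medians of bright probe sets lyz (a bound of 2.67-fold), agr2 (2.67-fold) and krt18a.1 (2.18-fold) did, and no measured leukocyte marker passed towards array M.

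The dct difference kept its direction and stayed past 4-fold under all 10 alternative settings, between 5.01-fold and 17.3-fold. The lowest value is a bound, since with the floor at the 65th percentile the dim signal of 50.1 was replaced by a higher floor. There dct held rank 30 of 2929 compared genes, against rank 5 to 7 under the other settings. Not every setting could change the dct ratio. A lower floor, no floor and the median over probe sets returned the deposited 11.8-fold and could not have moved it. The scalings left the median of measured genes between -0.19 and 0.87, shifts too small to reverse a log2 ratio of -3.56. The kept direction is therefore a weak check.

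**Figure D4:**
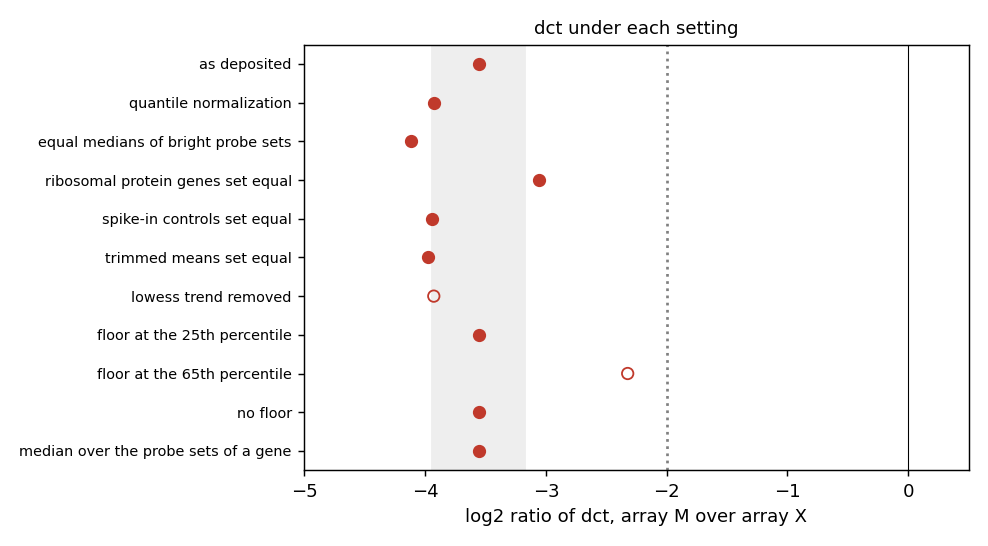
Log2 ratio of dct, M over X, under each setting. Open circles are bounds against a floor, the grey band is the deposited value of -3.56 with 1 SD between probe sets of a gene (0.38) on either side, and the dotted line marks 4-fold; all values lie beyond that line.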

How the data were processed

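The deposited values are MAS 5.0 signal intensities, made by an outside service per the labels' protocols. MAS5 is also named in the submitters' processing notes. The scaling target, the detection calls and the genome build were not given in the sources used here. Signals ran from 0.2 to 19555 on array M and from 0.3 to 23427 on array X. What limits precision is the number of arrays, 1 for each preparation.

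Samples were grouped by title. Of 15617 probe sets, 115 controls were left out. The platform annotation gave 1 symbol to 10795 probe sets (1 symbol was updated through its NCBI gene ID), several to 135, which stayed unnamed, and none to 4572. Where a gene had more than 1 probe set, that with the highest mean log2 signal stood for it. List symbols were matched by symbol or RefSeq synonym. The members and the 13 lists were chosen with earlier results of these data known.

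Genes named are the members, every gene of the melanin, melanosome, regulator and tyrosine lists past 2-fold, all measured melanin list genes, the 3 largest ratios of each marker list and the 5 nearest genes of each member. Wif1, sccpdha.1, mitfa, sox10, kita, mc1r and sp7 were added after their values were seen. Also named outside that rule are csf1ra, slc2a15b, fli1, fli1rs, dctn2, tat, slc3a2a, qdprb.1, coro1a, lyz, agr2, krt18a.1, krt18b, runx2a and cdh11. Alternatives were other scalings (quantile, bright probe sets, ribosomal protein genes, spike-ins, trimmed means, lowess with a span of 0.4), other floors, and other choices of probe sets. The calculation was tested on simulated data. Differences were planted there only in bright probe sets, so it was not tested at signals like those of tyr and pmelb. Python 3.11.15, numpy 2.4.6, pandas 2.3.3 and statsmodels 0.14.6 were used. Promoter and protein descriptions planned for the members were not made, and no sequences were used here.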

Additional observations from a re-analysis of the deposited data

How the results depend on the processing

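No paired analysis was possible because each preparation has 1 array, and none could be left out. The log2 ratio of dct was -4.11 with equal medians of bright probe sets and -3.98 with equal trimmed means. It was -3.06 with ribosomal protein genes set equal and -2.32 with the floor at the 65th percentile. Quantile normalization gave -3.93, lowess -3.93 (a bound) and spike-ins set equal -3.94, shifts just under 1 SD (0.38) of probe sets of 1 gene. A lower floor, no floor and the median over probe sets could not move it. For tyr equal medians of bright probe sets gave -0.40, equal trimmed means -0.27, ribosomal protein genes set equal 0.65 and spike-ins set equal -0.23. Each is a floor-limited bound, and a negative bound towards array M fixes no direction. For pmelb both signals stayed under the floor in every alternative with a floor. Genes 4-fold brighter on arrays M and X numbered 109 and 63 as deposited (63.4% on array M), 66 and 103 after quantile normalization (39.1%), 52 and 119 with equal bright medians (30.4%), 220 and 30 with ribosomal protein genes set equal (88%), 73 and 97 with spike-ins set equal (42.9%), 66 and 100 with equal trimmed means (39.8%) and 67 and 105 after lowess (39%). These scalings shift all ratios; the median of measured genes ran from -0.19 (bright medians) to 0.87 (ribosomal protein genes). Signals near the array median limit what can be said of tyr, and signals far under it what can be said of pmelb.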
